A study of Mus musculus with 6 samples.

Results

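Of 41308 consensus ATACseq peaks in GL261 cells, 769 were found at 21% O2 only, or 1.86% of all. A consensus peak was a stretch of more than 200 bp shared by the peak lists of both replicate libraries of a condition, merged with the stretches of the other conditions it touched. The 769 were chosen by the measured peak lists themselves, as those that held a stretch from 21% O2 and none from 1% O2 or <0.1% O2. The presence and height of these peaks in the 6 libraries therefore describe the choice and were not tested. For comparison, 3164 consensus peaks were found at 1% O2 only, 2521 at <0.1% O2 only and 28197 in every condition.

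GL261 is a mouse glioma cell line, here stably expressing pEGFP-N1, a plasmid for green fluorescent protein. Cells were held at 21% O2 (normoxia), 1% O2 (moderate hypoxia) or <0.1% O2 (severe hypoxia) for 16 h and fixed with formaldehyde before lysis, the hypoxic cells while still in the chamber. Each condition had 2 libraries, and the sources used here do not say whether they came from separate cultures, so the spread between them may be technical. The 21% O2 lists held 33006 and 36188 peaks and the 4 hypoxic lists 39348 to 43554. Fragment coverage of the genome, recovered from the lists, was 2.16 and 2.36 in the normoxic libraries and 2.93 to 3.35 in the hypoxic ones. Lists of 21% O2 were thus the shorter and shallower ones, and the part of depth in the results was not tested. In both 21% O2 libraries, 8 of 10 glioma marker genes had a promoter peak, with *Sox9* and *Egfr* lacking one. Of the markers of other cells, none of 5 immune and none of 3 endothelial genes had one, while *Syt1* of 3 neuronal and *Krt8* of 3 epithelial genes did.

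In ATACseq a transposase inserts sequencing adapters into DNA that is not wrapped in nucleosomes, so peaks of fragments mark promoters, enhancers and insulators that transcription factors hold open. Many distal elements are opened by AP-1, the dimer of Fos and Jun proteins, and insulators by CTCF. Low oxygen stabilises the HIF factors, which bind open sites that contain the hypoxia response element, and slows the oxygen-dependent demethylases that remove histone methylation.

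The 200 bp around the summits of the 8 regions with the highest mean fold at 21% O2 and no peak in any hypoxic library are given here, because they meet the class most strictly. Each is named by the gene with the nearest transcription start site (TSS), read from RefSeq GRCm38.p6 (mm10) on the plus strand, 5′ to 3′. Capitals mark matches to AP-1, CTCF, RUNX, ETS, CRE or SOX motifs on either strand.
Rpl7-ps7, chr5:82288535-82288734: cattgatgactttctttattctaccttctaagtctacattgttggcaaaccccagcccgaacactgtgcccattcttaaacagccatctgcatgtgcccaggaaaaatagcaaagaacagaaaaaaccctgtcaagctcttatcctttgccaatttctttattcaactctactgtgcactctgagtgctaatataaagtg
Gm22999, chr8:118753839-118754038: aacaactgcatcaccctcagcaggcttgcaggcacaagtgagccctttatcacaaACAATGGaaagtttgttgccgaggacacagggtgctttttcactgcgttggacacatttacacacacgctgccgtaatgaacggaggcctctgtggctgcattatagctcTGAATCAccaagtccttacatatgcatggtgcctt
Ctc1, chr11:69028820-69029019: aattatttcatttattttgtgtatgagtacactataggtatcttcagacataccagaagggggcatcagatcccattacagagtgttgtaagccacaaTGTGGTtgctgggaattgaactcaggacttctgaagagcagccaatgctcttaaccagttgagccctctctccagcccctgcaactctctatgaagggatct
Pogk, chr1:166417859-166418058: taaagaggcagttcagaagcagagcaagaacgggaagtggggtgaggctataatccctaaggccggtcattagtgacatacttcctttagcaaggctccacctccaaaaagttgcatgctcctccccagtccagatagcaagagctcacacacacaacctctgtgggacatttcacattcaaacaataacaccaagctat
Gm27595, chr11:107841238-107841437: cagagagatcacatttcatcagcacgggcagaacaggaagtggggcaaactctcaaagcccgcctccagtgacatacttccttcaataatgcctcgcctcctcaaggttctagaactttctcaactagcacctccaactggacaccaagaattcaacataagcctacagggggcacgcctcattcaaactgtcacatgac
AC136921.1, chr17:12261995-12262194: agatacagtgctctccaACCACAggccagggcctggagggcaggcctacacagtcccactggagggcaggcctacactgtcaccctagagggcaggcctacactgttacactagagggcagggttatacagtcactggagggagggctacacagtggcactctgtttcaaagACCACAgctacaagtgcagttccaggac
Gm37631, chr10:98494471-98494670: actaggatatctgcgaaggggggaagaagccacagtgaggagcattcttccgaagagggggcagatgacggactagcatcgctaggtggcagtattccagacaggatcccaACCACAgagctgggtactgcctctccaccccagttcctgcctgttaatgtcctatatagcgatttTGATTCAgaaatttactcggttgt
Gm49228, chr16:85023211-85023410: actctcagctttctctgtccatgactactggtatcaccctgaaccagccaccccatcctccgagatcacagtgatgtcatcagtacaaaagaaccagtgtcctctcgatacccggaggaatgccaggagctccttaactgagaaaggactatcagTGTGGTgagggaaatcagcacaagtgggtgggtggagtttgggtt

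The Gm22999 window held an AP-1 match (TGANTCA) and a SOX match (ACAATGG), and the Gm37631 window an AP-1 and a RUNX match (TGTGGT or its reverse complement). No match to the 6 marked motifs was found in the Rpl7-ps7, Pogk and Gm27595 windows. The AC136921.1 window held 2 RUNX matches and the Gm49228 window 1. The Ctc1 window held a RUNX match and was 97.5% masked as repeat in the reference. The Pogk and Gm27595 windows lie on different chromosomes, were 33% and 44.5% masked and shared a run of 16 bases, agtgacatacttcctt. No other pair of the 8 windows shared more than 11 bases on either strand.

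With all 4 hypoxic libraries counted, most regions of the 21% O2 only class had a listed peak in at least 1 of them. A peak overlapped in at least 1 hypoxic library at 590 of the 769 regions (76.7%, exact binomial 95% interval 73.6 to 79.7%), and at 179 (23.3%) in none. Over all consensus peaks, those 179 with a peak in both 21% O2 libraries and in no hypoxic library make up 0.433%. A single hypoxic library had a peak at 295 regions, 2 libraries at 249, 3 at 44 and all 4 at 2. In the other single-condition classes the share with no peak in any library of the other conditions was 24.1% at 1% O2 only and 29.8% at <0.1% O2 only. With stretches over 400 bp required, the share of the 21% O2 only class with no hypoxic peak was 4.08%. With a hypoxic library left out, the class is also redefined, since any peak of the replicate that remains then excludes a region. The share with no hypoxic peak in the classes so redefined was 50.2% without 1% O2 replicate 1, 51.7% without 1% O2 replicate 2, 41.96% without <0.1% O2 replicate 1 and 46.0% without <0.1% O2 replicate 2. These intervals, like all others given for shares, cover the counting of peaks only.

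By library, 35.1% of the 769 regions had a peak in 1% O2 replicate 1, 30.04% in 1% O2 replicate 2, 38.6% in <0.1% O2 replicate 1 and 17.6% in <0.1% O2 replicate 2. The shares of the replicates at <0.1% O2 thus stood further from each other than from those at 1% O2. With more than 1 hypoxic library, the commonest exact combination was a peak in replicate 1 of both hypoxia levels only, at 83 regions. Next came 1% O2 replicate 2 with <0.1% O2 replicate 1 and no other, at 82. Whatever the other hypoxic libraries held, both replicates of 1% O2 had a peak at 41 regions. Of these, 39 shared an overlap of no more than 200 bp. Counted in the same way, both replicates of <0.1% O2 had a peak at 23 regions, 20 of them with such a short overlap.

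**Figure D1:**
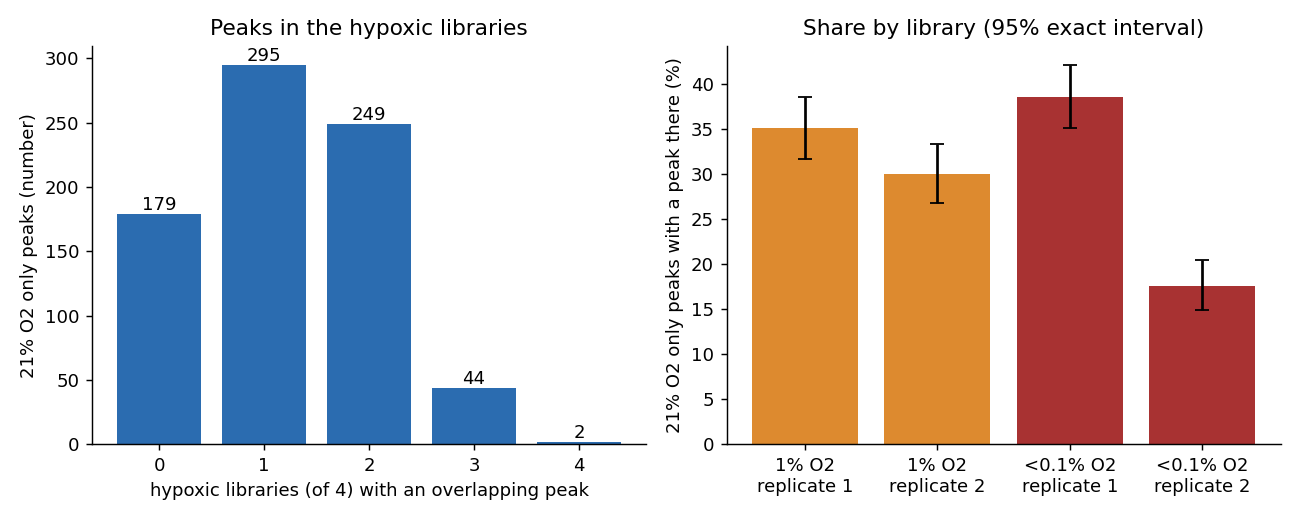
Left, number of 21% O2 only peaks by how many of the 4 hypoxic libraries had an overlapping peak. Right, share of the 769 peaks (%) with a peak in each hypoxic library, with exact binomial 95% intervals. Most regions had a peak in 1 or 2 hypoxic libraries (295 and 249), and <0.1% O2 replicate 2 had the lowest share, 17.6%.

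The regions were narrow and low, with a median width of 290 bp against 657 bp for all consensus peaks, and in width near the peaks of 1% O2 only (279 bp) and <0.1% O2 only (301 bp). Their stretch shared by the 21% O2 replicates was 290 bp at the median, with a range of 201 to 1611 bp, and 144 lay within 50 bp of the limit. Just outside it, 87 overlaps of the 21% O2 replicates away from every consensus peak measured at most 198 bp. Fold enrichment over the local background had a median of 5.38 in 21% O2 replicate 1 and 5.66 in replicate 2, against 8.55 and 9.32 for all consensus peaks. The summit was covered by 20 and 25 fragments at the median, against 54 and 65. As a multiple of the genome coverage these pileups were 9.26 and 10.6, against 25.0 and 27.6. Mean fold over the 21% O2 libraries ran from 2.25 to 12.2.

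For scale, these heights were set beside those of peaks listed in the hypoxic libraries. A percentile of listed peaks is not a limit of detection, and the part of the calling limit was not tested. Of the 769 regions, 635 (82.6%) had a summit pileup in both 21% O2 libraries above 6.83 times the coverage, the highest of the fifth percentiles of the hypoxic lists. Only 84 (10.9%) were above 18.9 times the coverage, the lowest of the medians of those lists. Of the 179 with no hypoxic peak the counts were 153 (85.5%) and 33 (18.4%).

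Where a hypoxic library did have a listed peak, the median fold was close to that at 21% O2 and the median pileup somewhat lower. Median folds there were 5.86 and 5.51 in the 1% O2 libraries and 5.62 and 5.26 in the <0.1% O2 libraries, against 5.66 to 5.84 at 21% O2 for the same regions. Median pileups over coverage were 9.56, 9.35, 8.66 and 7.54 in the same order, against 9.51 to 10.2 at 21% O2. Hypoxic values too low to be listed as a peak do not enter these medians. Closeness of the medians therefore does not show that heights were alike over the whole class. At 241 of the 590 regions (40.8%) some hypoxic library had a higher fold than both 21% O2 libraries, and at 187 (31.7%) by pileup over coverage. These counts take the highest hypoxic value at each region and were not set beside a share over all consensus peaks. By hypoxic library, fold lay above both 21% O2 values at 23.0 to 43.3% of such regions and below both at 35.9 to 50.4%. The region with the highest mean fold, picked after its values were seen, lay 10567 bp from the TSS of *Gdf9*, a growth factor of the oocyte. Its folds were 10.9 and 13.4 at 21% O2 and 17.6 in 1% O2 replicate 2, with no peak in the other hypoxic libraries. In an intron of *Slc14a1*, a urea transporter gene, a region also picked after its values were seen had folds of 9.33 and 11.6 at 21% O2. Its folds were 17.1 in 1% O2 replicate 1 and 16.1 in <0.1% O2 replicate 1, and neither hypoxic replicate 2 had a peak. At these regions the replicates of a hypoxia level thus differed in whether a peak was listed at all.

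**Figure D2:**
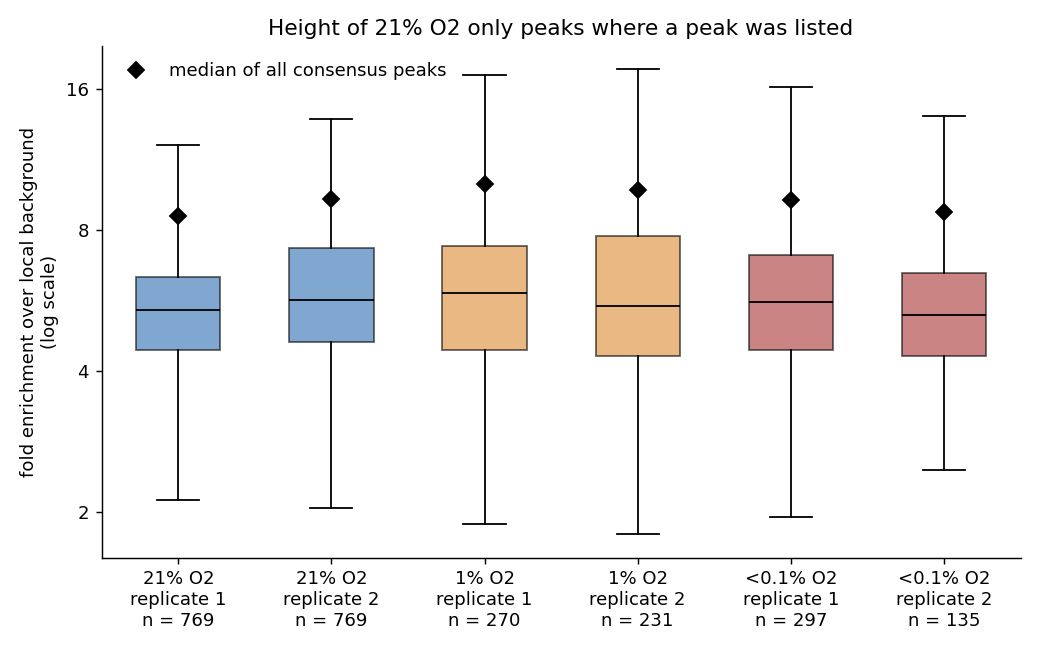
Fold enrichment over local background (log scale) of the 21% O2 only peaks in each library that had a peak there; boxes are quartiles with the median, whiskers the full range, n the number of regions, and diamonds the median of all consensus peaks. All 6 box medians lie between 5.26 and 5.86, below the diamonds, which lie between 8.55 and 10.00.

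The choice was repeated on a single replicate number, so that the other libraries had not been used. Of the peaks of 21% O2 replicate 1, 818 overlapped no peak of replicate 1 at 1% O2 or <0.1% O2. In the held-out libraries a peak was found at 42.8% of them at 21% O2 (39.4 to 46.3%), 25.9% at 1% O2 (22.9 to 29.1%) and 16.6% at <0.1% O2 (14.1 to 19.4%). On replicate 2, 1948 peaks were chosen, and 21% O2 had the lowest share instead of the highest. Held-out replicate 1 had a peak at 24.7% of them at 21% O2 (22.8 to 26.7%), 31.0% at 1% O2 (28.9 to 33.1%) and 29.7% at <0.1% O2 (27.6 to 31.8%). So the higher share at 21% O2 was not found in both directions. Over every peak of 21% O2 replicate 2, chosen or not, held-out replicate 1 had a peak at 85.4% in normoxia, 92.8% in moderate and 92.0% in severe hypoxia, and the normoxic list was the lowest there as well. Over every peak of 21% O2 replicate 1 the shares in replicate 2 were 93.8%, 94.98% and 92.2%. In the same exercise peaks of 1% O2 only were found in the held-out library of their own condition at 40.3% and 50.2%, and those of <0.1% O2 only at 30.8% and 51.4%, above the held-out libraries of the other conditions each time.

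The lists were also compared at equal length. With every list limited to the 33006 peaks with the best q-values, the length of the shortest list, 3408 and 2906 peaks were chosen. The held-out 21% O2 library then had a peak at 46.5% and 54.6% of them, against 14.6% and 19.3% at 1% O2 and 14.4% and 13.4% at <0.1% O2. The class itself grew to 2272 regions with lists of equal length, of which 45.1% had no hypoxic peak. This limit takes more of the peaks with the weakest q-values from the longer hypoxic lists than from the 21% O2 lists, so by construction it favours peaks of 21% O2 only, and it leaves the coverage unequal.

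**Figure D3:**
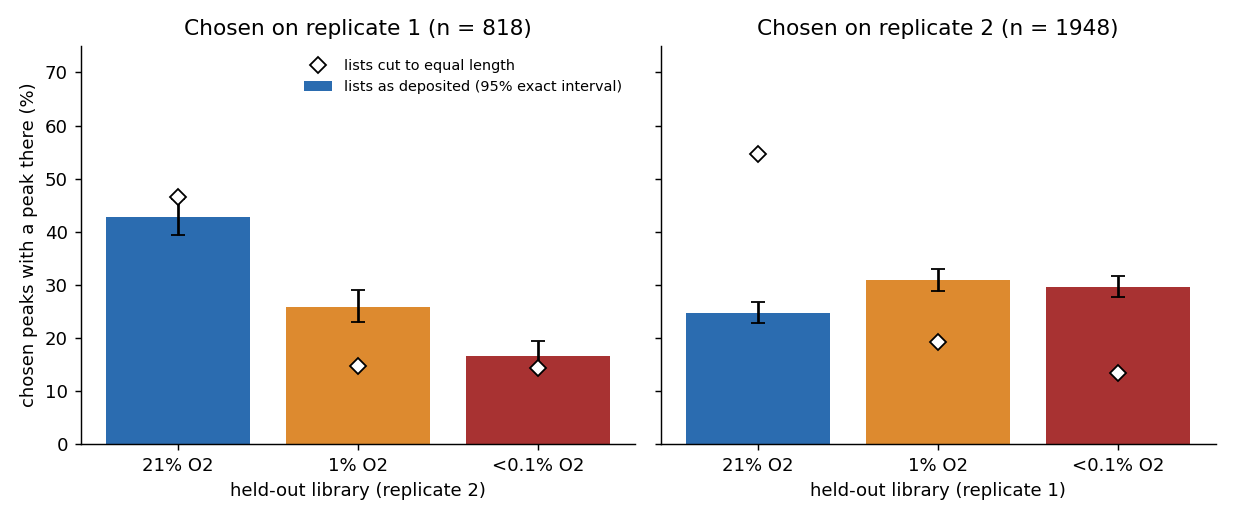
Share (%) of peaks chosen as 21% O2 only on replicate 1 (left) or replicate 2 (right) that had a peak in each held-out library, with exact binomial 95% intervals (bars) and for lists of equal length (diamonds). The 21% O2 bar is the tallest on the left (42.8%) and the shortest on the right (24.7%), while the 21% O2 diamond is the highest in both (46.5% and 54.6%).

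The position of the regions relative to genes was not used to choose them. At promoters, within 2000 bp of a TSS, lay 163 of the 769 (21.2%, 18.4 to 24.3%), against 36.5% of all consensus peaks. This share was above that of the 1% O2 only peaks, 17.5% (16.2 to 18.9%), with overlapping intervals, and above that of the <0.1% O2 only peaks, 11.9% (10.6 to 13.2%), with intervals that did not overlap. Another 310 regions (40.3%) were intergenic, 263 (34.2%) intronic and 33 (4.29%) exonic. Of the promoter regions, 97 (59.5%) were nearest the TSS of a protein-coding gene, against 82.4% of all promoter peaks, 63.7% at 1% O2 only and 59.9% at <0.1% O2 only. The others were at pseudogenes and noncoding genes.

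**Figure D4:**
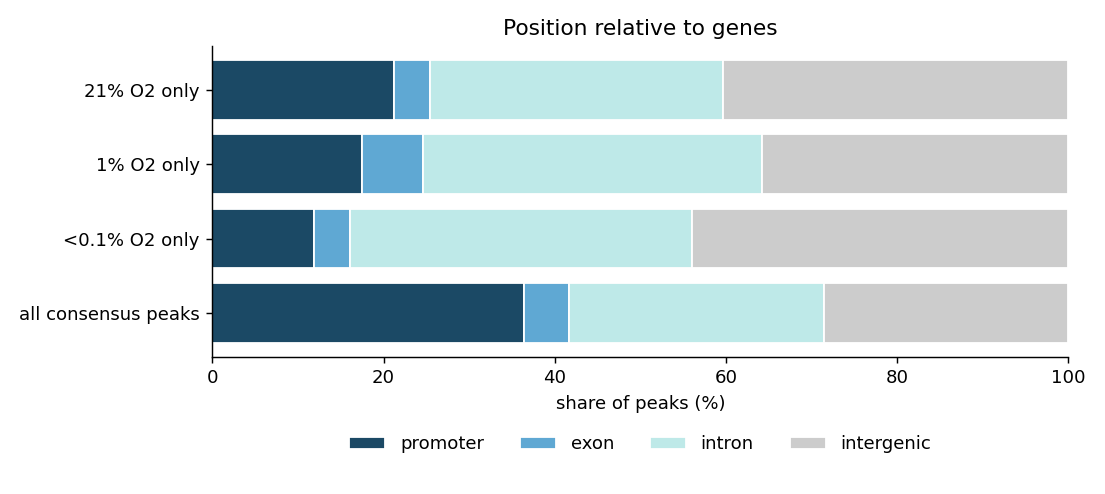
Share of peaks (%) at promoters (within 2000 bp of a TSS), in exons, in introns and between genes for the 21% O2 only peaks, the other single-condition classes and all consensus peaks. The promoter share of the 21% O2 only peaks, 21.2%, lies between those of the <0.1% O2 only peaks (11.9%) and of all peaks (36.5%).

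More of these regions than of all peaks lay beside other open chromatin. Another consensus peak lay within 1 kb of 110 of them (14.3%, 11.9 to 17.0%), against 8.09% of all consensus peaks, 9.67% (8.66 to 10.8%) of the 1% O2 only and 7.77% (6.76 to 8.89%) of the <0.1% O2 only peaks. Of the 201 genes with such a region at a promoter, 71 (35.3%) also had a promoter peak in every condition. This share was not set beside that of all genes with a promoter peak or of the other single-condition classes. Whether 35.3% is high or low was thus not tested. Median GC content in 300 bp around the summit was 48.7%, against 52.0% for all peaks, 51.0% at 1% O2 only and 46.3% at <0.1% O2 only. At promoters it was 54.3%, against 62.0% for all promoter peaks. Masked repeats, a feature added after the data were seen, covered 14.3% of these windows on average, against 10.3% over all peaks, 12.5% at 1% O2 only and 14.9% at <0.1% O2 only.

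AP-1 motifs were scarce in these regions. Away from promoters, TGANTCA was found on either strand in 111 of 606 windows of 300 bp around the summit (18.3%, 15.3 to 21.6%). It was found in 34.6% of all consensus peaks away from promoters, 25.7% (24.0 to 27.4%) of the 1% O2 only peaks and 40.6% (38.5 to 42.7%) of the <0.1% O2 only peaks. None of these intervals overlapped that of the 21% O2 only regions. Among peaks of at most 400 bp, a limit added after the data were seen, the shares were 18.95% (15.6 to 22.7%), 33.0% over all such peaks, 26.4% (24.6 to 28.2%) at 1% O2 only and 41.1% (38.8 to 43.4%) at <0.1% O2 only. With lists of equal length AP-1 was found at 18.2% of the 1670 regions away from promoters, against 36.1% of all peaks there. At promoters it was found in 13 of 163 regions (7.98%, 4.31 to 13.3%), against 17.3% (14.3 to 20.7%) at 1% O2 only and 30.1% (25.0 to 35.6%) at <0.1% O2 only, while all promoter peaks had 11.01%.

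The CTCF motif was found in 5.94% (4.195 to 8.13%) of the regions away from promoters, against 3.64% of all such peaks, 7.51% (6.53 to 8.59%) at 1% O2 only and 2.79% (2.15 to 3.56%) at <0.1% O2 only. Among peaks of at most 400 bp CTCF was found in 6.65% (4.62 to 9.22%), against 5.95% of all such narrow peaks, a share inside the interval. The SP/KLF pattern GGGNGGGG, bound by factors of GC-rich promoters, was found in 11.2% (8.82 to 14.01%), against 18.6% of all such peaks and 20.2% (18.7 to 21.8%) at 1% O2 only, and close to the 12.1% at <0.1% O2 only. The NFI motif TTGGCA, of a factor family active in glia, was found in 14.4% (11.7 to 17.4%), against 20.8% of all such peaks, 19.5% (17.96 to 21.0%) at 1% O2 only and 21.2% (19.6 to 23.0%) at <0.1% O2 only. The hypoxia response element core, ACGTG or GCGTG, was found in 31.0% (27.4 to 34.9%), near the 31.8% of all such peaks. Its first form is also part of the E-box CACGTG, found in 5.61% of the regions and 4.58% of all such peaks.

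The other motifs searched away from promoters were the CRE TGACGTCA (0.165% of the regions and 0.747% of all such peaks), the E-box CAGCTG (17.7% and 22.6%), the NFY box CCAAT (33.5% and 32.3%) and the TEAD motif GGAATG (20.6% and 21.5%). The IRF pattern GAAANNGAA was found in 8.91% and 9.49%, the STAT pattern TTCCNGGAA in 1.65% and 1.30%, and the OCT motif ATGCAAAT in 0.660% and 1.38%. The NRF1 motif GCGCATGC was found in 1.16% and 0.758%, and the GC box GGGGCGGGG, which contains the SP/KLF pattern, in 0.990% and 2.24%. RUNX was found in 25.7% and 23.5%, SOX in 7.59% and 5.98% and ETS in 3.47% (2.16 to 5.25%) and 2.62%.

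At promoters the RUNX motif TGTGGT was found in 41 of 163 regions (25.2%, 18.7 to 32.5%), against 13.2% of all promoter peaks. The interval overlapped those of the promoter peaks at 1% O2 only (18.4%, 15.3 to 21.9%) and at <0.1% O2 only (21.1%, 16.6 to 26.1%). CTCF was found in 6.75% (3.42 to 11.8%) of them, against 1.43% of all promoter peaks, 3.61% (2.22 to 5.52%) at 1% O2 only and 2.68% (1.16 to 5.20%) at <0.1% O2 only. SOX was found in 7.36% (3.86 to 12.5%), against 2.68%, 3.61% (2.22 to 5.52%) and 4.01% (2.09 to 6.91%) in the same order. NFI was found in 15.95% (10.7 to 22.5%), against 12.7% of all promoter peaks. The SP/KLF pattern was found in 23.3% (17.1 to 30.6%), against 45.3% of all promoter peaks, 34.1% at 1% O2 only and 27.4% at <0.1% O2 only. The hypoxia response element core was found in 49.1% (41.2 to 57.0%), against 59.9% of all promoter peaks and lower shares of 41.2% at 1% O2 only and 33.1% at <0.1% O2 only. The ETS motif CCGGAAG, typical of housekeeping promoters, was found in 4.91% (2.14 to 9.44%), against 14.7% of all promoter peaks, 4.69% at 1% O2 only and 1.34% at <0.1% O2 only. A match to these letters is a description of the window and does not show binding.

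**Figure D5:**
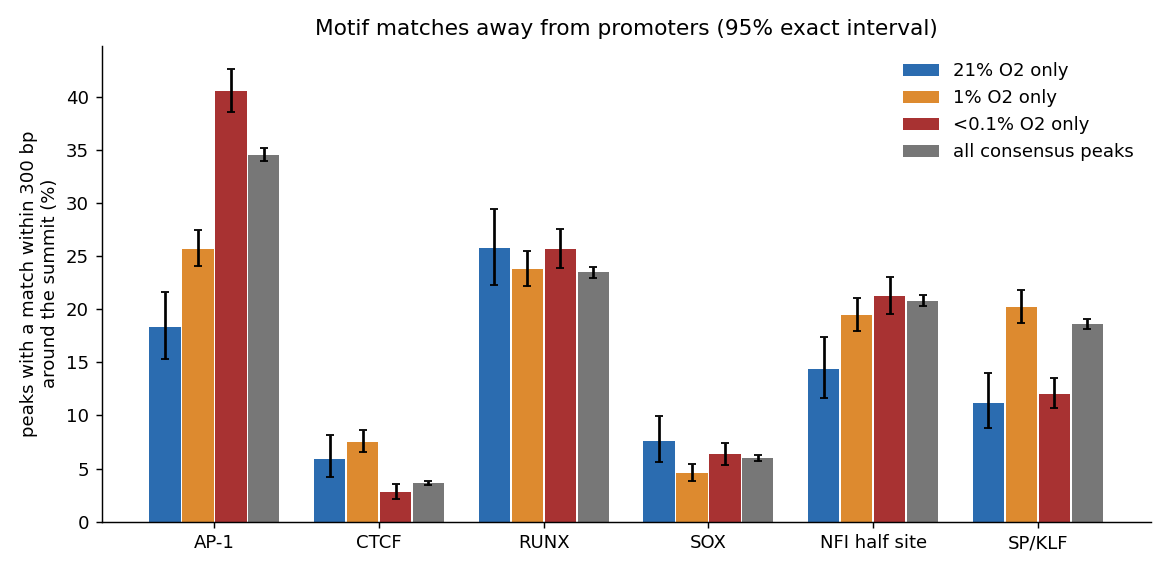
Share of peaks away from promoters (%) with a motif match within 300 bp around the summit, for the 21% O2 only peaks, the other single-condition classes and all consensus peaks, with exact binomial 95% intervals. AP-1 matches are fewest in the 21% O2 only peaks (18.3%) and most in the <0.1% O2 only peaks (40.6%).

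Among regions with no hypoxic peak, the highest by mean fold was an intergenic region at chr5:82288415-82288831, named by the pseudogene Rpl7-ps7, with folds of 12.03 and 11.02 and 37 and 36 fragments at its summit. An intronic region of *Cdh13* near the small RNA gene Gm22999, at chr8:118753838-118754177, had a mean fold of 9.96 ± 2.89 (SD, n = 2). A region in an intron of *Ctc1*, which encodes a subunit of the telomere-capping CST complex, had folds of 8.80 and 11.02. In an intergenic region 7768 bp from the TSS of *Pogk*, a gene derived from a transposase, folds were 10.1 and 8.93. These regions lay away from promoters, and their summits of 24 to 41 fragments were below the medians of all consensus peaks.

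The next 8 in order had mean folds of 7.66 to 8.84. One was intronic in *Chmp4c*, which encodes a subunit of the ESCRT-III membrane-remodelling complex, with folds of 6.47 and 9.46 and an AP-1 match. The others, at chromosomes 2, 5, 6, 10, 11, 16 and 17, were nearest the TSS of pseudogenes and noncoding gene models. Their nearest protein-coding TSSs, among them those of *Rbm19*, *Itpr2*, *Cacng4*, *Map3k4*, *App*, *Atp2b1* and *Cdh4*, lay 13678 to 460042 bp away.

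At promoters of protein-coding genes, the tallest region was at *Apool*, whose product is a part of the MICOS complex of mitochondrial cristae. Its folds were 6.65 and 10.7 at 21% O2, 9.42 in 1% O2 replicate 1 and 4.30 in <0.1% O2 replicate 2. At *Slitrk5*, a neuronal transmembrane protein gene, folds were 8.89 and 7.30 at 21% O2, 9.28 in 1% O2 replicate 1 and 7.78 in <0.1% O2 replicate 1. The hypoxic values of both genes lay within or above the range of the 21% O2 values in at least 1 library. At *Magohb*, which encodes a core protein of the exon junction complex, folds were 8.56 and 7.09 at 21% O2, 6.11 in 1% O2 replicate 1 and a lower 4.60 in <0.1% O2 replicate 1. At *Tmsb15b1*, of the actin-binding thymosin beta family, they were 6.65 and 9.53 at 21% O2 and 6.11 in 1% O2 replicate 1. At *BB014433* they were 7.61 and 8.73 at 21% O2 and higher, 11.4 and 12.6, in replicate 1 of 1% O2 and <0.1% O2. The other 5 of the 10 tallest promoter regions were at the noncoding genes or pseudogenes Gm13284, Gm11290, Gm49228, Gm41414 and Gm27844.

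Across all genes with a consensus promoter peak, 201 of 17123 (1.17%) had a 21% O2 only region at a promoter. Of the 23 HIF target genes with a promoter peak none did, nor did any of 28 cell cycle, 17 glial identity, 17 sterol synthesis, 15 TGF-beta, BMP and Wnt response, 14 p53 target or 14 extracellular matrix genes. These lists are short and are to be read against the 1.17% of all genes. The family lists gave 0 of 46 homeobox, 0 of 57 ion channel and 0 of 13 phosphodiesterase genes. They gave 1 of 24 cadherin, 2 of 388 zinc finger and 1 of 188 solute carrier genes. AP-1 family genes gave 1 of 12 and interferon and MHC genes 1 of 18.

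In these lists, the regions with no peak in any hypoxic library were at the promoters of *Slc7a11* and *Batf3*. *Slc7a11*, the cystine and glutamate exchanger that feeds glutathione synthesis, had folds of 5.70 and 5.36 at chr3:50443585-50443841, with 17 fragments at the summit in each library. *Batf3*, a basic leucine zipper factor that pairs with Jun proteins, had folds of 3.78 and 3.85 at chr1:191098360-191098655. Both pairs of 21% O2 values lay close together and well below the median fold of all consensus peaks.

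The other list promoters described here kept a peak in some hypoxic library. *Irf7*, an interferon regulatory factor, had folds of 7.13 and 3.74 at 21% O2 and 4.29 in 1% O2 replicate 1, between the 21% O2 values. *Pcdh7*, a protocadherin, had folds of 3.51 and 3.56 at 21% O2, 3.87 in 1% O2 replicate 2 and 3.46 in <0.1% O2 replicate 1. *Zkscan7* and *Zfp462*, zinc finger genes, had mean folds of 5.06 and 3.42 at 21% O2. Each had a lower fold, 4.51 and 2.98, in a single hypoxic library.

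Within 50 kb of list genes the regions were mostly away from the promoter, and these genes are named after their values were seen. A region 4.1 kb from *Ddit4*, the HIF target that restrains mTOR, had folds of 2.43 and 2.45 at 21% O2, 1.80 in 1% O2 replicate 2 and 1.95 in <0.1% O2 replicate 1. A region 9.7 kb from the TSS of *Ccnd1*, which encodes cyclin D1, in overlapping exons of *Ccnd1* and the neighbouring gene *LTO1*, had folds of 3.11 and 3.17 and no hypoxic peak. At *Atf3*, a stress-induced partner of AP-1, a region 10.7 kb from the TSS had folds of 5.62 and 4.62 at 21% O2, 4.03 in 1% O2 replicate 2 and 2.67 in <0.1% O2 replicate 1. All hypoxic values at *Ddit4* and *Atf3* lay below both 21% O2 values. This was not so at *Col5a2*, a fibrillar collagen gene, where a region 38.0 kb away had folds of 5.70 and 4.17 at 21% O2 and 5.02 and 5.50 at <0.1% O2. Nor was it so at *Tgfb1*, a growth factor gene, where a region 10.2 kb away had folds of 3.48 and 4.11 at 21% O2, 3.91 in 1% O2 replicate 1 and 3.04 in <0.1% O2 replicate 1. At *Id2*, a target of BMP signals, a region 3.8 kb away had folds of 2.72 and 3.04 at 21% O2 and 2.41 in 1% O2 replicate 2. Apart from *Col5a2*, these genes had their own promoter peak in every condition.

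The densest stretches of 100 kb, 2 in number, held 3 regions each. At chr1:86424852-86509713 the regions were nearest *Nmur1*, a neuropeptide receptor gene, *Tex44* and *Ptma*, which encodes prothymosin alpha. The region near *Ptma* had folds of only 4.27 and 4.04 but 100 and 119 fragments at its summit, and no hypoxic peak. The region near *Tex44* had folds of 3.20 and 3.37 with 100 and 126 fragments, and a fold of 1.88, also with 100 fragments, in 1% O2 replicate 1. At chr11:107785431-107859712, 3 regions lay near Gm11650 and Gm27595. Those near Gm27595 had folds of 7.57 and 10.1 with no hypoxic peak, and of 7.55 and 5.68 with 9.40 in 1% O2 replicate 2.

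The genes next to the regions were read through their own promoter peaks, which the rule did not use. For the 606 regions away from promoters, 589 genes had the nearest TSS, and 221 of them (37.5%) had 250 promoter peaks present in all 6 libraries. Each fold was expressed as its percentile within that library, taken over the 28432 peaks that all 6 libraries share. The median percentile was 48.3 and 45.7 in the normoxic libraries, 43.8 and 45.1 under moderate hypoxia, and 38.2 and 40.5 under severe hypoxia. The median change from normoxia was -0.49 points for moderate and -1.16 points for severe hypoxia, against -0.96 and -2.52 over all 12959 promoter peaks. Both 1% O2 ranks lay below both 21% O2 ranks at 29.6% of the 250, against 29.6% of all promoter peaks, and above them at 26.8%, against 21.6%. At <0.1% O2 they lay below at 36.8%, against 38.2%, and above at 26.0%, against 21.3%. All promoter peaks had higher median percentiles, 61.2 and 60.1 in normoxia, 59.2 and 59.3 under moderate and 53.9 and 55.4 under severe hypoxia. By fold, the promoters of genes next to 21% O2 only regions were thus lower in every library, as were those next to 1% O2 only peaks, with 49.4 and 46.4 in normoxia, and next to <0.1% O2 only peaks, with 56.9 and 56.7. By summit pileup they were higher in 5 of 6 libraries and lower in <0.1% O2 replicate 2, with medians of 68.5, 66.8, 66.0, 65.0, 59.6 and 59.3 from normoxia to severe hypoxia, against 65.3, 65.5, 64.5, 64.1, 58.7 and 59.5 for all promoter peaks. By pileup the counts also turned against those of all promoter peaks. Both ranks lay below both normoxic ranks at 38.8%, against 35.8%, under moderate and at 54.0%, against 51.5%, under severe hypoxia. They lay above at 28.8%, against 31.6%, and at 20.4%, against 24.1%. The median change was -0.94, against -0.40, and -4.38, against -3.85. With 2 libraries against 2, an exact two-sided permutation test cannot give a p below 0.33, so no p-value is given.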

How the data were processed

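GL261 cells were profiled by ATACseq at 3 oxygen levels in 6 libraries. Reads were aligned by the authors to mm10, and peaks were called library by library with MACS2 2.1.1.2. The lists they deposited give each peak's fold (a ratio over local background) and its -log10 p-value and -log10 q-value, the last at least 3. Replicates were not pooled. Bowtie2 2.2.5 is named in the submitters' processing notes.

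From these lists, consensus peaks were built after the study's methods from the shared stretches themselves, so numbers can differ from the study's. Together, the deposited fold and p-value fixed the summit pileup of 100% of peaks (tolerance 0.0001), and the lowest background of a list served as its coverage. Each peak took 1 annotation from GENCODE M21, in the order promoter, exon, intron, intergenic. Sequence came from GRCm38.p6, and the lists lay within its chromosome lengths. Windows of 300 bp around the tallest summit were searched for 18 motifs on both strands. All results are descriptions with exact binomial 95% intervals, and no test was made.

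The members and lists were chosen with earlier results of these data known. Named were the 12 regions of highest mean fold with no hypoxic peak, the 10 of highest mean fold at promoters, list genes with a region at the promoter and the members of the 3 densest stretches. The third of these was 1 of 40 tied stretches and is not described. Alternatives covered overlap, threshold, list length, chromosomes, each library left out, windows and the value ranked. The steps were tested on simulated data. Reads were not used here, and 1 gene list is not reported here. The tools were matplotlib 3.10.9, scipy 1.17.1, pandas 2.3.3, numpy 2.4.6 and Python 3.11.15.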

Additional observations from a re-analysis of the deposited data

How the results depend on the processing

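The number of 21% O2 only peaks and their presence in hypoxic libraries depended on the peak lists, while the AP-1 share away from promoters stayed below that of all peaks in every setting run with both shares. Of 90 values recomputed, 58 stayed within a set margin, 31 moved beyond it and 1 reversed. The margin was 1.5 times for counts and the counting interval for shares and GC content. For held-out differences it came from the width of the interval of the 21% O2 share. For rank changes and height it came from the spread between replicates. With lists of equal length the number was 2272, the share with no hypoxic peak 45.1%, the promoter share 26.5% and the median GC content 50.0%. The RUNX share away from promoters was then 22.3%, against 23.3% of all such peaks. By construction this setting removes more weak peaks from the hypoxic lists. The held-out 21% O2 share less the mean hypoxic share went from 21.5 to 32.0 percentage points with the choice on replicate 1 and reversed from -5.57 to 38.3 on replicate 2. With stretches over 400 bp the share with no hypoxic peak was 4.08%, the promoter share 24.5% and the GC content 49.7%. A -log10 q of at least 10 left 484 peaks, with a CTCF share of 4.49% (3.61% of all such peaks). The absence of any hypoxic peak left 179, with a promoter share of 24.6%. Their RUNX share away from promoters was 31.9%, against 23.5% of all consensus peaks there. Promoters within 500 bp held 11.6%. In 200 bp windows AP-1 was found in 14.4% (30.2% of all such peaks) and RUNX in 18.5% (16.9%). By summit pileup, the median height was 37.7% of that of all consensus peaks, against 61.8% by fold, and the change of neighbouring promoters at <0.1% O2 was -4.38 (-3.85 for all promoter peaks).

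With a library left out, the number ranged from 472 to 2875, the share with no hypoxic peak from 31.6 to 51.7%, the promoter share from 17.4 to 23.5% and the GC content from 48.3 to 49.5%. The number was 2875 without 21% O2 replicate 1, 1657 without 21% O2 replicate 2, 499 without 1% O2 replicate 2 and 472 without <0.1% O2 replicate 2. A condition with a single library needs no shared stretch, so its peaks are more by construction. Shares away from promoters ranged from 16.2 to 18.6% for AP-1, 4.76 to 7.09% for CTCF and 24.1 to 28.2% for RUNX, in an alternative chosen after seeing the data, as was the motif share with lists of equal length. No paired analysis was possible because no value comes from a test. A peak missing from a list was not detected at that library's depth and threshold. Reads per library were not used here.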

Other observations

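The 21% O2 only regions were spread over every chromosome. Chromosomes 1 to 17 and X had between 1.36% and 2.38% of their consensus peaks in the class. Chromosome 18 had the highest share among those with more than 10 consensus peaks, 45 of 1585 (2.84%, exact binomial 95% interval 2.08 to 3.78%), and chromosome 19 the lowest, 11 of 1150 (0.957%, 0.478 to 1.71%). Another region of the class lay within 100 kb of 81 of the 769 (10.5%). Among solute carrier genes, 18 of the 334 annotated had a region of the class within 50 kb, and among zinc finger genes 16 of 490, against 2347 of 55304 genes in all (4.24%). No test was made of these counts.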
